A study of Mus musculus with 20 samples.

Results

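Ccr1, Ccr2, Ccr3 and Ccrl2 are 4 chemoattractant receptor genes on mouse chromosome 9, out of 24421 genes listed in the count table of murine bone marrow-derived dendritic cells (BMDCs). All 4 passed the filter on low counts, which left 12465 genes for testing. The genes were picked by name, with earlier results of these libraries known, among them their lower levels after iBET. Differences between iBET and DMSO are therefore given for them as values with no test, and tests are given only for the effect of immune complexes and for its difference between DMSO and iBET. For Ccr2 the latter was among the known results too, so its test is not independent of the choice of genes.

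BMDCs were grown from the marrow of wild-type C57BL/6 mice in 40 ng/mL GM-CSF for 8 days. Cells of 5 mice, called A to E, were each split over 4 groups, which gave 20 libraries of bulk RNA. The groups were DMSO with ovalbumin alone (DMSO Ova), DMSO with ovalbumin IgG immune complexes (DMSO IC), iBET with ovalbumin alone (iBET Ova) and iBET with the complexes (iBET IC). iBET is I-BET151, a small molecule that blocks the bromodomains of the BET proteins, given at 3.3 µM, and Ova or IC was present for 4 hours. The labels give 5% DMSO for the solvent groups and say that drug and stimulus were added together, whereas the methods of the study place the drug shortly before the stimulus. No DMSO content of the iBET groups and no age or sex of single animals is given in the sources used here. Libraries of the same letter come from the same animal, and the 5 animals are the replicates.

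Chemokine receptors are G protein-coupled receptors that steer leukocytes along gradients of chemokines. CCR1 binds CCL3 and CCL5 among other ligands. CCR2, the receptor of CCL2 and CCL7, brings monocytes out of the bone marrow and into inflamed tissue, and monocytes are a source of dendritic cells in GM-CSF cultures. CCR3 binds the eotaxins CCL11 and CCL24 and is best known from eosinophils. CCRL2 is an atypical receptor that does not signal through G proteins: it binds chemerin, the product of Rarres2, and presents it to cells with the signalling receptor CMKLR1.

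In the GRCm38 build, Ccr1 (ENSMUSG00000025804.5) lies on the minus strand of chromosome 9 from 123962124 to 123968692. Ccr3 (ENSMUSG00000035448.9) follows on the plus strand from 124021972 to 124031689, and Ccr2 (ENSMUSG00000049103.14) on the plus strand from 124101950 to 124113557. These 3 protein-coding genes form a cluster, with 53.3 kb between Ccr1 and Ccr3 and 70.3 kb between Ccr3 and Ccr2. Another listed gene inside this span, with at most 6 reads in a library, was too low to test. Ccrl2 (ENSMUSG00000043953.12) is on the same chromosome but not in that cluster: it runs on the minus strand from 111054486 to 111057519, 12.9 Mb from Ccr1. The coding sequences show the same grouping. Ccr1 and Ccr3 had the same base at 72.3% of the positions aligned without gaps, Ccr2 had 67.7% with Ccr1 and 67.0% with Ccr3, and Ccrl2 had between 60.8% and 62.8% with the other 3. No stretch of 50 bases of Ccr1, Ccr3 or Ccrl2 exons occurred in the transcripts of another gene, and 1.91% of such stretches of Ccr2 did, so that few reads of the 4 genes could match another gene.

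The 250 bases before the RefSeq start of Ccr1 and of Ccr3 (GRCm38.p6, each written 5′ to 3′ on the strand of its gene) are shown because these genes of the cluster differ in the factor motifs they hold while both were lower with iBET. Capitals mark matches on either strand to 6 short motifs that were searched: GAGGAA for PU.1, TGANTCA for AP-1, TTGCNNAA for C/EBP, GGAANTTCC for NF-kB, GAAANNGAA for an interferon response element and TATAAA for a TATA box.
Ccr1, chr9:123968693-123968942, minus strand: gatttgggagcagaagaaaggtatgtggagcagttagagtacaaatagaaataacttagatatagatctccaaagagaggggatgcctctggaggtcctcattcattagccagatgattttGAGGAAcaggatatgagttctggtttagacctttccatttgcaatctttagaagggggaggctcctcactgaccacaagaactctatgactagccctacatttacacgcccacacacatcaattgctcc
Ccr3, chr9:124021721-124021970, plus strand: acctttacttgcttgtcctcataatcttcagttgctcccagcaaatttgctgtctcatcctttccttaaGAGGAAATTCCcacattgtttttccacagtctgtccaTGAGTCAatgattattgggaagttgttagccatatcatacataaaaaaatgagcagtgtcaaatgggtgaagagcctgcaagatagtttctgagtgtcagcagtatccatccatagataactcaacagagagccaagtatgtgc
The Ccr1 window held a PU.1 match 129 bases before the start, a motif found in 23.3% of the 32851 promoter windows of the RefSeq table. The Ccr3 window held a PU.1 match at 181 bases that runs into an NF-kB match at 179 bases, and an AP-1 match at 144 bases. An NF-kB match was found in 0.813% of all windows and an AP-1 match in 6.75%. The Ccr2 window held a single match, to the interferon response element (7.13% of all windows), and none of the 3 Ccrl2 windows held any of the 6 motifs. Of the 250 bases of the Ccr2 window, however, 233 lie in exons of the GENCODE models, as do 139 and 140 bases of 2 of the Ccrl2 windows, so these are in large part transcribed sequence, whereas the Ccr1 and Ccr3 windows hold no exon base. C/EBP and TATA box letters, which are in 9.56% and 12.4% of all windows, were in none of these windows. The matches describe the letters of these windows and say nothing on binding.

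Libraries held between 16447491 and 29245150 counts, with a median of 21764663. Levels are given as CPM, counts scaled to a common library size after TMM normalization. Dendritic cell markers were present, with the dendritic cell genes Itgax and Cd74 at group means of 1960 CPM and above, but Cd209a was under 1 CPM in every group. The macrophage genes Csf1r (group means up to 1030 CPM) and Adgre1 (146 to 163 CPM) and the monocyte gene Chil3 (from 13700 CPM) were also high, so the cultures held more than dendritic cell transcripts. Lymphocyte markers summed to at most 0.499 CPM. Libraries of mice A and B stood apart from those of mice C, D and E on the second principal component (14.9% of the variance), with scores from 18.6 to 33.8 against -23.5 to -9.83. iBET and DMSO libraries were apart on the first component (58.8%), and Ova and IC libraries on the third (8.43%). Results that differ between these 2 sets of mice, called AB and CDE, are given for each set.

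To compare levels between genes, CPM was divided by the length of all annotated exons in kb. With DMSO and Ova, Ccr1 had 129 ± 34.5 CPM per kb (SD, n = 5) and Ccr2 72.1 ± 22.6 CPM per kb, far above Ccrl2 with 4.56 ± 1.71 and Ccr3 with 1.93 ± 0.687 CPM per kb. Ccr1 stood at rank 363 and Ccr2 at rank 595 of 11942 genes with a single annotated length, whereas Ccrl2 and Ccr3 stood at 6415 and 8702. The ranges of Ccr1 and Ccr2 overlapped, and in mouse D the order was turned, with Ccr1 at 0.838 times Ccr2 against 1.59 to 3.81 times in the other 4 mice. With IC the level of Ccr1 was 3.72 times that of Ccr2, and their ranges did not overlap. With iBET and Ova, Ccr1 still led at 19.7 ± 5.17 CPM per kb, followed by Ccr2 (2.22 ± 0.168), Ccrl2 (1.54 ± 0.443) and Ccr3 (0.384 ± 0.0451). With iBET and IC, Ccrl2 (3.86 ± 1.00 CPM per kb) came before Ccr2 (2.28 ± 0.441) in all 5 mice, although their ranges touched. By rank, Ccr2 stood at 8201 and Ccr1 at 2072 in the iBET Ova group. Ccr2 has several annotated isoforms, and its level per kb would be higher if a short isoform made most of the RNA.

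**Figure D1:**
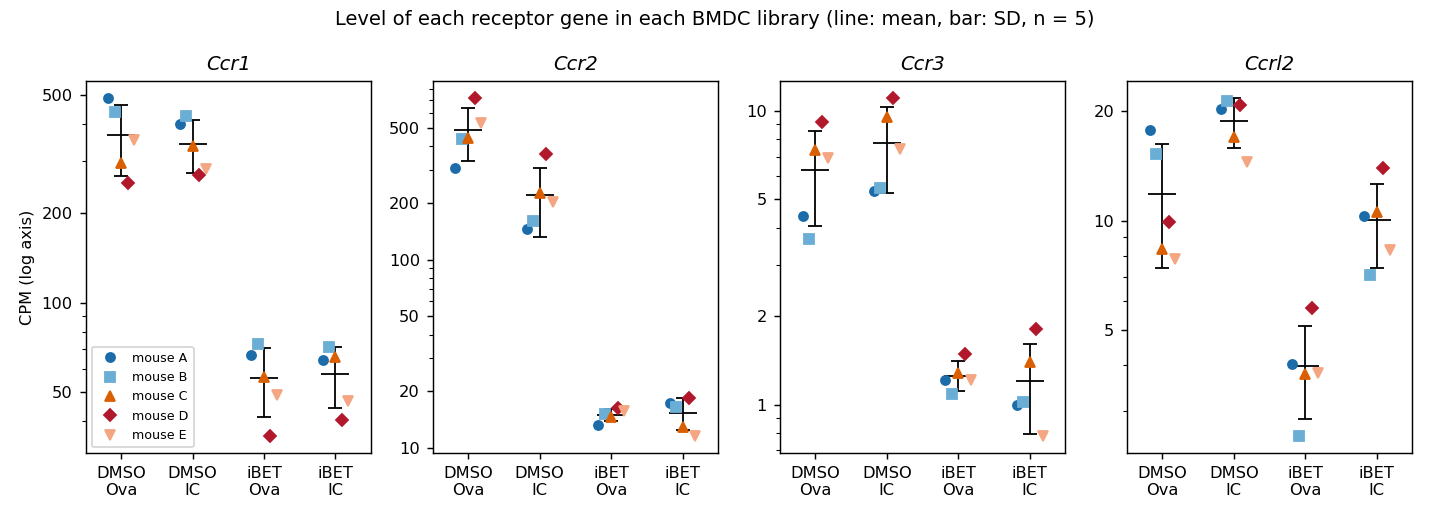
CPM of Ccr1, Ccr2, Ccr3 and Ccrl2 (log axis, a scale of its own for each gene) in the 20 libraries, by group and mouse, with the mean as a line and the SD as a bar (n = 5). Every iBET library lies below every DMSO library of the same stimulus for all 4 genes, and Ccr2 shows the widest gap, from 487 to 15.0 CPM with Ova.

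Ccr2 showed the largest difference between iBET and DMSO of the 4 genes. With DMSO and Ova it had 306, 439, 442, 721 and 529 CPM in mice A to E, and with DMSO and IC 145, 161, 226, 364 and 202 CPM. In the iBET Ova group the values were 13.3, 15.2, 14.5, 16.2 and 15.7 CPM, and with iBET and IC 17.4, 16.6, 13.0, 18.5 and 11.5 CPM. Thus mouse D was highest and mouse A lowest in both DMSO groups, and the spread between mice was smaller after iBET, with a coefficient of variation of 7.57% against 31.4% in Ova and of 19.4% against 39.7% in IC. Mean Ccr2 with Ova was 487 ± 153 CPM (SD, n = 5) in DMSO and 15.0 ± 1.14 CPM in iBET, which is 32.5-fold lower (log2 fold change -5.02, SE 0.264). By log2 fold change it ranked 11 from the lowest of the 12465 genes. The ratio within a mouse ran from 23.1-fold lower in mouse A to 44.5-fold lower in mouse D. With IC the means were 220 ± 87.1 and 15.4 ± 2.98 CPM, a log2 fold change of -3.83 (SE 0.250). In set AB this was -3.15, and in set CDE -4.17. In bulk RNA, fewer cells with a transcript and less of it per cell cannot be told apart.

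IC alone also lowered Ccr2. In DMSO its level with IC was 2.22-fold lower than with Ova, with a log2 fold change of -1.15 (SE 0.222, 95% interval -1.62 to -0.69, adjusted p = 0.00126, edgeR), and it was lower in 5 of 5 mice. The groups overlapped, since mouse D with IC exceeded mouse A with Ova. The adjusted p lay between 6.71e-06 and 0.0183 over 14 alternative fits. Of all genes tested, 10.7% passed as lower and 9.59% as higher in this comparison, and Ccr2 ranked 66 from the lowest log2 fold change. After iBET, IC and Ova did not differ detectably in Ccr2 (log2 fold change 0.04, 95% interval -0.45 to 0.53, adjusted p = 0.940), with 3 mice higher and 2 lower.

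The difference between the IC effect in iBET and that in DMSO (the interaction) was 1.19 on the log2 scale for Ccr2 (SE 0.322), which did not pass over all genes (adjusted p = 0.426, unadjusted p = 0.00147, edgeR, and adjusted p = 0.0755 by DESeq2). The fit with the mouse as a replicate block gave 1.22 (SE 0.227) and did pass (adjusted p = 0.0144). The adjusted p ran from 0.0144 to 1.0 over 13 alternatives, and the block fit alone passed. All 5 mice showed the same sign, from 0.81 in mouse C to 1.57 in mouse B. Without the block 0.0401% of genes passed and with it 0.818%. No other of the 4 genes passed in either fit. The interaction of Ccr2 was among the results known when the genes were picked.

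Ccr1 was lower with iBET to nearly the same extent under both stimuli and showed no detectable change with IC. In mice A to E it had 489, 438, 295, 253 and 354 CPM in the DMSO Ova group, and 400, 424, 337, 269 and 281 CPM in DMSO IC. Under iBET it had 66.6, 72.6, 56.1, 35.5 and 48.9 CPM with Ova, and with IC 64.0, 71.1, 65.6, 40.3 and 46.9 CPM. Mouse D had the lowest Ccr1 in every group, and mice A and B were the highest in all groups but iBET IC, where mouse C was above mouse A. iBET and DMSO differed by log2 fold changes of -2.71 (SE 0.222) in Ova and -2.57 (SE 0.220) in IC, or 6.54-fold and 5.94-fold lower with the drug. The ratio within a mouse stayed between 5.13-fold and 7.34-fold lower over both stimuli. IC against Ova gave log2 fold changes of -0.10 in DMSO (95% interval -0.53 to 0.34, adjusted p = 0.799) and 0.04 in iBET (-0.40 to 0.48, adjusted p = 0.928). Of the 2 most abundant of the 4 genes, then, IC lowered Ccr2 in DMSO and gave no detectable change of Ccr1.

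Ccr3 was low throughout. With DMSO and Ova it had 4.38, 3.68, 7.39, 9.14 and 6.93 CPM in mice A to E, from 62 to 261 reads, and with DMSO and IC 5.36, 5.45, 9.52, 11.1 and 7.43 CPM. The iBET Ova libraries had 1.21, 1.08, 1.28, 1.49 and 1.21 CPM, and those with iBET and IC 1.00, 1.02, 1.40, 1.81 and 0.779 CPM, from 14 to 38 reads. Mice A and B were thus the lowest in both DMSO groups, the reverse of their place for Ccr1. iBET against DMSO gave log2 fold changes of -2.33 (SE 0.275) in Ova and -2.69 (SE 0.275) in IC. In set AB the value in Ova was -1.81, and in set CDE -2.51. IC against Ova in DMSO gave 0.30 (95% interval -0.21 to 0.80, adjusted p = 0.427), higher in 5 of 5 mice. With the replicate block this was 0.31 and passed (adjusted p = 0.0342), and over 14 alternatives the adjusted p lay between 0.0342 and 0.626. With the block 18.3% of all genes were called higher and 19.8% lower in this comparison. After iBET the log2 fold change of IC against Ova was -0.07 (95% interval -0.70 to 0.56, adjusted p = 0.920).

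Eosinophil markers were present at a low level, and Ccr3 was 5.01-fold lower with iBET in the Ova groups. The sum of the 8 markers had a median of 118 CPM with DMSO and Ova (53.4 to 145) and 97.4 CPM with iBET and Ova (43.0 to 107). The granule protein genes Prg2 and Epx had log2 fold changes of -0.07 (adjusted p = 0.915) and 0.08 (adjusted p = 0.925), and 2 of the 7 markers tested, Siglecf and Alox15, were lower (log2 fold changes -0.48 and -1.06). Of all genes tested, 28.9% passed as lower in this comparison. The defining marker Il5ra had 0.192 CPM on average in the DMSO Ova group and 0.0108 CPM in iBET Ova. With at most 11 reads in a library, it was too low to test. By mouse, the marker sum in DMSO was 63.2 and 55.8 CPM in mice A and B and 130 to 155 CPM in mice C, D and E, the same order of the 2 sets as for Ccr3 (4.87 and 4.56 against 7.18 to 10.1 CPM). The part of eosinophils in the level of Ccr3 was not tested.

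Among the 4 genes, Ccrl2 alone rose with IC in both treatments. It had 17.8, 15.3, 8.38, 9.95 and 7.85 CPM with DMSO and Ova in mice A to E, and 20.4, 21.4, 17.0, 20.9 and 14.5 CPM with DMSO and IC. The iBET Ova libraries had 4.04, 2.55, 3.79, 5.76 and 3.81 CPM, and the iBET IC libraries 10.3, 7.08, 10.6, 13.9 and 8.29 CPM. In iBET every IC library was above every Ova library, which held for 4.57% of all genes, while in DMSO mouse A with Ova was above mice C and E with IC. IC against Ova in iBET gave a log2 fold change of 1.32 (SE 0.245, 95% interval 0.81 to 1.83, adjusted p = 0.00150), or 2.50-fold, with 2.18-fold to 2.78-fold in single mice. It ranked 46 from the highest log2 fold change of all genes, and 5.19% of all genes passed as higher and 6.63% as lower. The call passed under all 14 alternatives, with adjusted p from 4.46e-06 to 0.0219.

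In DMSO the rise of Ccrl2 with IC was 0.67 on the log2 scale (SE 0.227, 95% interval 0.19 to 1.14, adjusted p = 0.0436), higher in 5 of 5 mice. With the replicate block in edgeR the rise was 0.69 (SE 0.18, adjusted p = 0.00572), where 18.3% of all genes passed as higher. The call without the block was near the threshold: it passed under 6 of 14 alternatives, with adjusted p between 0.00236 and 0.429. Leaving out mouse B (adjusted p = 0.0507), C (0.188), D (0.140) or E (0.104) each ended it, and it remained without mouse A (0.0285). The log2 fold change was 0.32 in set AB (adjusted p = 0.429) and 1.01 in set CDE (adjusted p = 0.00236). The interaction of Ccrl2 was 0.66 (95% interval -0.04 to 1.35, adjusted p = 1.0), so a larger rise in iBET was not shown.

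The level of Ccrl2 with iBET was 2.96-fold below that with DMSO in Ova (log2 fold change -1.56, SE 0.244) and 1.88-fold below it in IC (-0.91, SE 0.229), the smallest differences of the 4 genes over all 5 mice. Here the 2 sets of mice stood apart. With Ova the value was -2.31 in set AB, where Ccr3 had the smallest difference (-1.81), and -0.92 in set CDE. With IC it was -1.24 and -0.65. The Ccrl2 level of mice A and B was higher than that of the other 3 in the DMSO Ova group only, and not in iBET. With iBET and IC, mean Ccrl2 (10.0 ± 2.61 CPM, SD, n = 5) was close to that with DMSO and Ova (11.9 ± 4.45 CPM).

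**Figure D2:**
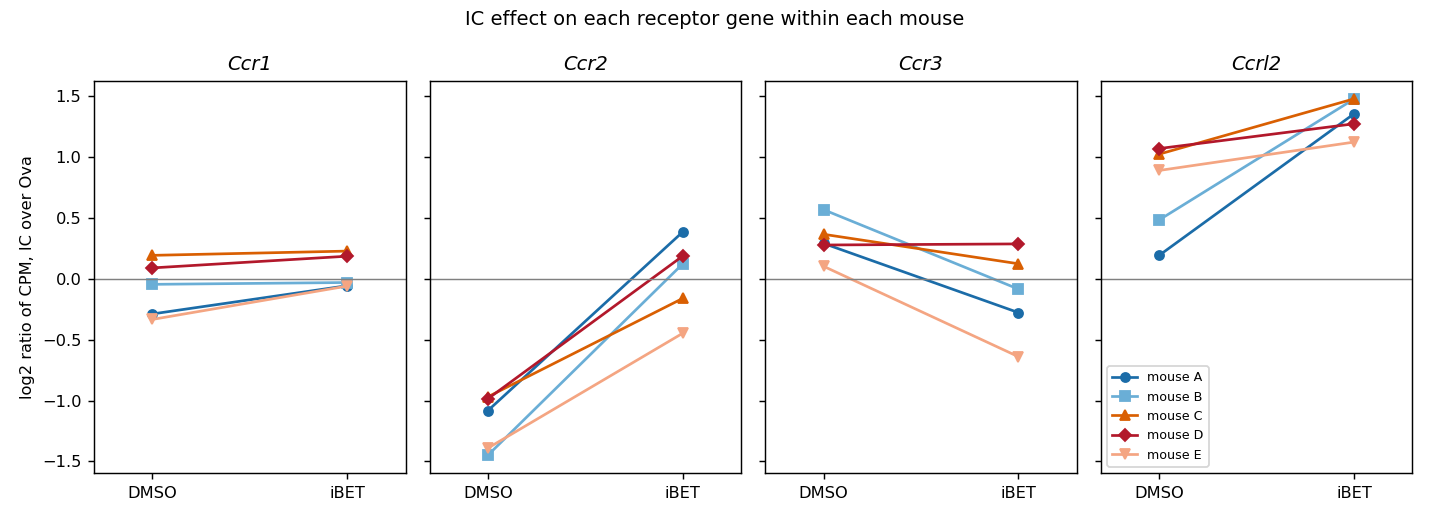
log2 ratio of CPM with IC over CPM with Ova in each mouse, in DMSO and in iBET, for the 4 genes (a line joins the values of a mouse, 0 means no difference). Ccr2 lies between -1.45 and -0.97 in DMSO and around 0 in iBET, and Ccrl2 lies above 0 in all 5 mice in both.

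Over the 4 genes, iBET against DMSO had a median log2 fold change of -2.52 in Ova and -2.63 in IC, beside -0.003 and -0.005 over all 12465 genes. All 4 were lower with iBET in 5 of 5 mice under both stimuli, with no overlap of the groups. Of all genes tested, 28.9% passed as lower and 27.7% as higher with Ova, and 29.0% and 27.1% with IC, and 19.5% and 21.6% had every iBET library below every DMSO library. Since the genes were selected on this comparison, nothing is read from their count. For IC against Ova the medians over the 4 genes were 0.10 in DMSO and 0.04 in iBET, beside -0.02 and -0.01 over all genes, with Ccr2 lowest and Ccrl2 highest in DMSO, and Ccr3 lowest and Ccrl2 highest in iBET.

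**Figure D3:**
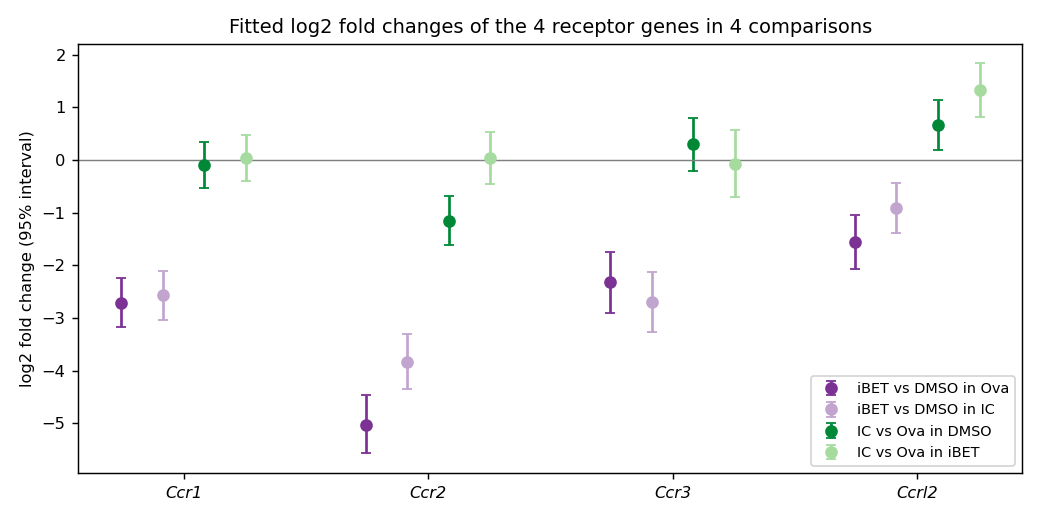
Fitted log2 fold changes with 95% intervals for the 4 genes in 4 comparisons (0 means no difference). The iBET comparisons lie below 0 for each gene, from -5.02 for Ccr2 to -0.91 for Ccrl2, and of the IC comparisons only those of Ccrl2 and of Ccr2 in DMSO have intervals clear of 0.

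Markers of the cell types that the cultures could hold moved with iBET too. In Ova, 4 of 7 macrophage markers tested were lower with iBET, with log2 fold changes down to -1.02, beside 28.9% of all genes. The sum of the macrophage markers had a median of 1500 CPM with DMSO and Ova (1270 to 1920) and 1040 CPM with iBET and Ova (883 to 1250). Of the monocyte markers Vcan was lower, and the sum of the list, most of it Chil3, had medians of 13200 CPM (8370 to 19500) and 16000 CPM (12300 to 21800). Of 7 dendritic cell markers 1, Flt3, was lower. Of 3 basophil or mast cell markers Gata2 was lower, and the neutrophil markers had log2 fold changes between -0.39 and -0.01. For IC against Ova, 0 of the 35 markers tested passed in DMSO or in iBET (edgeR and DESeq2), with 0 and 1 at an unadjusted p under 0.05. Both fits leave out the pairing by mouse, and the markers are not given with the replicate block. Small changes of these markers with IC could therefore be missed. The part of these cells in the lower receptor levels was not tested.

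The receptors varied between mice in different directions. In DMSO, Ccr1 was 444 and 431 CPM in mice A and B (mean of Ova and IC) against 261 to 317 CPM in the other 3, while Ccr2 was 226 and 300 CPM against 334 to 543 CPM. Monocyte markers summed to 18400 and 18200 CPM in mice A and B against 9570 to 13400 CPM, and dendritic cell markers to 5570 and 5190 CPM against 7700 to 9060 CPM. Across the 20 libraries, with group means taken out, log2 CPM of Ccr2 and Ccr3 had a Pearson correlation of 0.75, Ccr1 and Ccr3 of -0.67, Ccr1 and Ccr2 of -0.56, and Ccrl2 between -0.17 and -0.04 with the others. These 20 points share 5 animals and 2 sets of mice, and are given as a description.

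The known ligands of these receptors were measured in the same libraries. Of 13 ligand genes listed 8 were tested, and Ccl6 (7493 CPM on average over 20 libraries), Ccl9 (1450 CPM) and Ccl5 (113 CPM) were the most abundant. Ccl3, a ligand of CCR1, had 27.0 ± 14.8 CPM in the DMSO Ova group and 8.12 ± 3.04 CPM in iBET Ova (log2 fold change -1.74, SE 0.325, adjusted p = 0.000139). It rose with IC in DMSO, to 68.4 ± 19.5 CPM (1.34, adjusted p = 0.00462), and in iBET, to 23.6 ± 5.68 CPM (1.54, adjusted p = 0.00423). Ccl2, a CCR2 ligand, had 5.35 ± 3.60 CPM in the DMSO Ova group and 13.9 ± 6.30 CPM in DMSO IC, a rise of 1.37 (SE 0.456, adjusted p = 0.0401) in 5 of 5 mice. Ccr2 and Ccl2 thus moved in opposite directions with IC in DMSO. Ccl2 in the iBET Ova group had 10.7 ± 5.03 CPM, higher than with DMSO in 5 of 5 mice (0.99, adjusted p = 0.0714), in contrast to the 32.5-fold lower Ccr2. With the replicate block this was 1.03 and passed (adjusted p = 0.00022). Ccl7, another CCR2 ligand, stayed near 1 CPM (mean 1.21 over all libraries) and passed in none of these comparisons without the replicate block. Ccl12, on the same list of ligands, had at most 7 reads in a library and was not tested.

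In all, 3 of the 8 ligands were lower with iBET under each stimulus (Ccl3, Ccl4 and Ccl9) and none higher. Without the block 28.9% of all genes passed as lower and 27.7% as higher in Ova, and 29.0% and 27.1% in IC. With the block Ccl5 was lower and Ccl2 higher as well under each stimulus, where 35.2% of all genes passed as lower and 33.5% as higher in Ova, and 35.4% and 32.6% in IC. With IC in DMSO, Ccl2, Ccl3 and Ccl4 rose and none fell, and with IC in iBET Ccl3 and Ccl4 rose and none fell. Of all genes 9.59% passed as higher and 10.7% as lower in DMSO, and 5.19% and 6.63% in iBET. With the replicate block the counts of ligands that rose were 6 of 8 in DMSO and 7 of 8 in iBET. With the block 18.3% of all genes passed as higher and 19.8% as lower in DMSO, and 14.2% and 14.7% in iBET. The eotaxin gene Ccl24 had 1.39 CPM on average and passed in no comparison without the block. Ccl11 and Ccl8 had no count in any library, and chemerin (Rarres2) had at most 2 reads in a library, so RNA of the ligand of CCRL2 was at the limit of detection at this depth.

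Cmklr1, the signalling receptor for chemerin, had 123 ± 33.2 CPM in the DMSO Ova group and 26.4 ± 6.00 CPM in iBET Ova (log2 fold change -2.22, SE 0.204, adjusted p = 1.84e-08). Like Ccrl2 it was higher with IC in 5 of 5 mice in both treatments, with 0.48 in DMSO (adjusted p = 0.0867) and 0.76 in iBET (adjusted p = 0.0166). Cxcr4, the receptor of CXCL12, had 97.4 ± 20.0 CPM in the DMSO Ova group and 54.9 ± 1.42 CPM in iBET Ova (-0.83, adjusted p = 3.00e-06), and rose by 0.54 with IC in iBET (adjusted p = 0.00361). Ccr7, which guides dendritic cells to lymph nodes, had 461 ± 224 CPM in the DMSO Ova group and 331 ± 191 CPM in iBET Ova, lower in 5 of 5 mice (-0.48, adjusted p = 0.443). With the replicate block it passed as lower in Ova (-0.57, adjusted p = 2.14e-05) and in IC (-0.51, adjusted p = 7.2e-05). Of the 19 other chemoattractant receptors listed, 4 were tested, and 3 of these (Cxcr2, Cxcr4 and Cmklr1) were lower with iBET under each stimulus. The other 15 were too low to test. Of all genes tested, 28.9% were lower with iBET in Ova and 29.0% in IC. With the replicate block 3 of the 4 receptors tested were called higher with IC in DMSO, against 0 without it. Of all genes 18.3% were called higher there with the block and 9.59% without it.

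**Figure D4:**
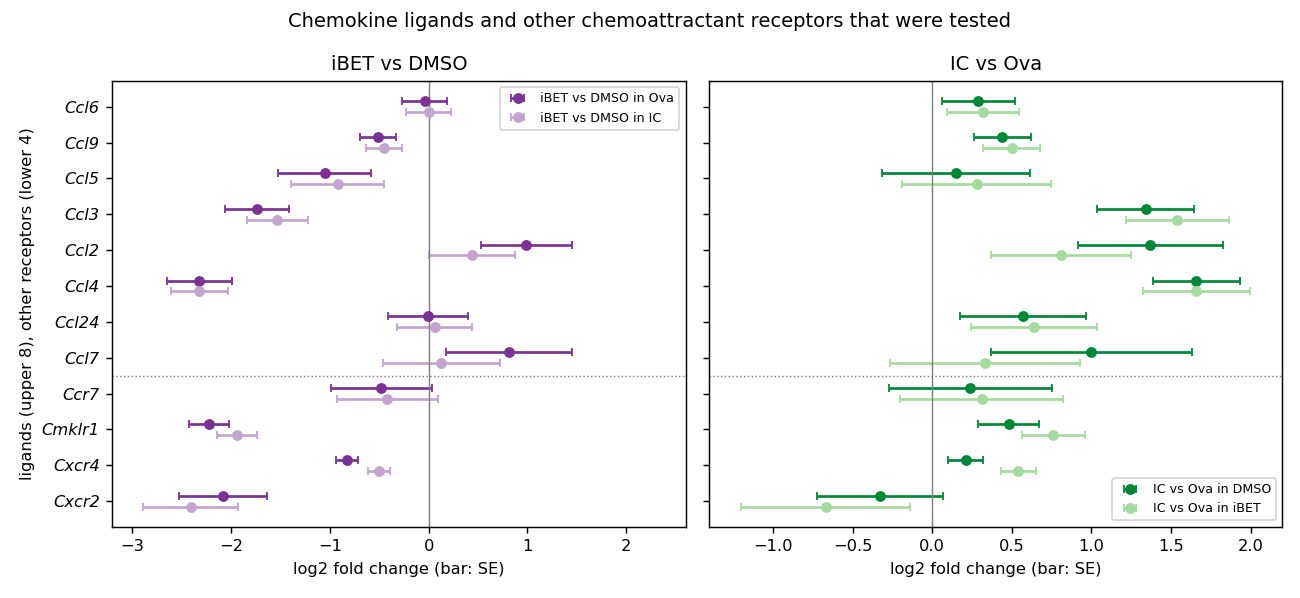
log2 fold changes with SE of the 8 ligands (upper) and 4 other receptors (lower) that were tested, ordered by mean CPM, for iBET against DMSO (left) and IC against Ova (right). Ccl4, Ccl3, Cmklr1 and Cxcr2 lie far to the left with iBET, from -2.41 to -1.53, and Ccl4, Ccl3 and Ccl2 lie to the right with IC, from 0.81 to 1.66.

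Listed genes of chemokine receptor signalling were mostly lower with iBET or did not pass. The list mixes genes that carry the signal with arrestin, receptor kinase and Rgs genes that limit it. Of 29 tested, 16 were lower and 1 was higher with iBET in Ova, and 15 and 2 in IC, with medians of -0.27 and -0.32. Of all genes, 28.9% were lower and 27.7% higher in Ova, and 29.0% and 27.1% in IC. The inhibitory G protein subunits Gnai2 and Gnai3 and the GTPase Rac1, the 3 most abundant of the list, had log2 fold changes of 0.05, -0.15 and 0.01 with Ova, and none passed. The gene higher in both was Plcb3, a phospholipase C, and in IC the G protein subunit gene Gng2 joined it. With the replicate block 4 of the list were higher in IC, beside 32.6% of all genes. With IC in DMSO 8 were lower and 2 higher (with the block 10 and 6), and in iBET 3 and 2 (with the block 8 and 5). Over all genes 10.7% were lower and 9.59% higher in DMSO, and 6.63% and 5.19% in iBET. With the block these shares were 19.8% and 18.3% in DMSO, and 14.7% and 14.2% in iBET. Of the list, Vav1 and Pik3r5, a regulatory subunit of PI3 kinase gamma, were higher with IC in both treatments without the block. Those lower in iBET were Grk6, Rgs19 and Pik3r6.

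The genes whose log2 CPM followed each receptor most closely over the 20 libraries were all at lower mean levels with iBET as well. For Ccr1 these were Nlrp3, an inflammasome sensor, Ptger2, a prostaglandin E2 receptor, and Havcr2, which encodes TIM-3 (Pearson correlations from 0.988 to 0.990). For Ccr2 they were Arhgef6, an exchange factor for small GTPases, Aftph and the adaptor gene Dok2 (0.984 to 0.987). Dok2, like Ccr2, was lower with IC than with Ova in DMSO, with mean levels of 57.0 and 108 CPM, and lowest with iBET, with 10.8 CPM in Ova and 8.26 CPM in IC. For Ccr3 they were Ciita, the master regulator of MHC class II genes, Ifnlr1 and Arhgap30 (0.973 to 0.977). For Ccrl2 they were Cxcr4, Ifngr2 and Tmem140 (0.926 to 0.945). Tmem140 had means of 18.2 and 26.7 CPM with Ova and IC in DMSO, and of 5.17 and 11.0 CPM in iBET. No test is given for these genes, which were selected on their likeness to a receptor. For Ccr1, Ccr2 and Ccr3 and the genes named with them, every DMSO library was above every iBET library, so these correlations follow that split. Ccrl2, Cxcr4 and Tmem140 overlapped between DMSO and iBET libraries and were also higher on average with IC.

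Genes around the receptors moved in both directions with iBET, where 28.9% of all genes passed as lower and 27.7% as higher in Ova. Of 16 other listed genes within 500 kb of the span from Ccr1 to Ccr2, 9 were tested, with a median log2 fold change of -0.20 with iBET in Ova. Of these 2 were lower, among them Fyco1 (-1.22, adjusted p = 4.54e-08), and 2 were higher, Sacm1l (0.66, adjusted p = 1.28e-07) and Limd1 (0.23, adjusted p = 0.0162). Around Ccrl2, 12 of 24 listed genes were tested, with a median of -0.28. The nearest with a value, Ltf and Lrrfip2, had log2 fold changes of 0.20 (adjusted p = 0.846) and -0.26 (adjusted p = 0.0200), and in all 5 were lower and 2 (Epm2aip1 and Setd2) higher. With IC in DMSO, 4 of the 12 were lower and 0 higher. Next to the cluster of 3, 2 of the 9 genes were higher and 2 lower with IC in DMSO. Of all genes, 9.59% were higher and 10.7% lower in that comparison.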

How the data were processed

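RNA of 20 BMDC libraries was sequenced by the authors on an Illumina HiSeq after preparation with a stranded pico input kit. Per the labels and the methods, reads were trimmed (Trim Galore), aligned to mm10 with HISAT2 and assigned to genes with featureCounts. The deposited values are raw counts per gene. Versions, annotation and strand setting are not given in the sources used here. A deposited table of normalized counts was not used.

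Counts of genes passing filterByExpr were scaled by TMM and tested with edgeR 4.0.16 (R 4.3.3), by the quasi-likelihood test in a single fit of 4 groups, with Benjamini-Hochberg adjustment over 12465 genes and a threshold of 0.05. SE is the absolute log2 fold change divided by the root of F. Of 24421 listed genes 6187 had no count. CPM uses TMM-scaled library sizes. Alternatives were a replicate block by mouse, DESeq2 1.42.0, its size factors, library size only, no filter, surrogate variables (sva 3.50.0, 3 variables), the 10 libraries compared, each mouse left out, and 2 sets of mice. Labels name the same mouse in each group, and deviations of libraries of the same mouse correlated with a mean of 0.524 (lowest 0.307, 30 pairs). Replicates differed beyond counting noise (lowest chi-square per degree of freedom 13.18 over 40 pairs). The fit was also run on simulated counts drawn without differences between mice, which cannot check it for libraries paired by mouse.

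The 4 genes and all lists were chosen with earlier results of these data known. From each pathway list the 3 genes with the highest mean CPM and needed ligands were named, with some genes behind counts of 5 or fewer, chosen after their values were seen; for each receptor, the 3 genes with the highest correlation; and genes within 500 kb, a window taken separately around Ccrl2 once its position was seen. Gene models are GENCODE M21 (GRCm38), promoters RefSeq (GRCm38.p6), with all 4 symbols matched. Some genes are not reported here.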

Additional observations from a re-analysis of the deposited data

Results flagged for a closer look

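The IC effect on Ccr2 differed between DMSO and iBET in the fit with the mouse as a replicate block, by 1.22 on the log2 scale (SE 0.227, adjusted p = 0.0144), while the fit without the block gave 1.19 (adjusted p = 0.426). This interaction was among the results known when the genes were picked, so its test is not independent of that choice. No library stood apart from the other 4 of its group in any of the 16 sets of values checked (4 genes in 4 groups).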

How the results depend on the processing

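Of the 4 genes, 2 (Ccr2 and Ccrl2) passed for IC against Ova in DMSO. This fell to 1 (Ccr2) with library size only, with no filter on low counts, with only the 10 libraries compared and in mice A and B alone, and lay between 1 and 2 when a mouse was left out. It rose to 3 (Ccr2, Ccr3 and Ccrl2) with the replicate block, where 18.3% of all genes passed as higher and 19.8% as lower. The count in iBET (1, Ccrl2) did not change under any alternative run. For the interaction 0 passed, and 1 (Ccr2) with the replicate block, the only alternative of 13 to change it. Over all genes, 5 passed for the interaction without the block (543 at an unadjusted p under 0.05), 102 with it and 24 by DESeq2. The block ended no call among the 4 genes and added those of Ccr3 for IC in DMSO and of Ccr2 for the interaction. Some log2 fold changes near 0, none of which passed, changed sign for IC against Ova in iBET. For Ccr1 (0.04) it was -0.06 with library size only and -0.03 in mice A and B alone, and from -0.00 to 0.07 with a mouse left out. For Ccr2 (0.04) it was -0.07 with library size only, -0.10 with surrogate variables and -0.11 in mice C, D and E alone, and from -0.05 to 0.14 with a mouse left out. For Ccr3 (-0.07) it was 0.02 in mice C, D and E alone, and from -0.19 to 0.03 with a mouse left out. The cause was not tested. The medians over the 4 genes moved by less than the spread between mice in all 28 alternative values. Ligands that rose with IC in DMSO numbered 3, against 1 without mouse C and 0 in mice A and B alone, and 5 without mouse A and 6 in mice C, D and E alone, with surrogate variables or with the replicate block. In iBET, Ccr3 rested on 14 to 38 reads a library, which limits what could be seen of an IC effect there.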
